A study of Mus musculus with 12 samples.

Results

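Genes of platelets and of the megakaryocytes that shed them, 9 of the 49585 genes in the deposited count table, were followed across the 4 groups of the study. They were taken by gene symbol: the chemokines Pf4 and Ppbp, the collagen receptor Gp6, the 2 chains of the fibrinogen receptor Itga2b and Itgb3, 3 subunits of the receptor for von Willebrand factor, Gp1ba, Gp9 and Gp5, and the granule receptor Treml1. All 9 had enough counts to be tested. RNA was taken from whole lungs of C57BL/6J mice that carried an MO4 melanoma under the skin, and 3 libraries were made in each group. The combination group was 22 months old and received antibodies against the checkpoint receptor PD-1 and against the receptor of the cytokine IL-21. The aged anti-PD-1 group, also of 22 months, received anti-PD-1 alone, and the aged control group of that age received an isotype-matched rat control antibody. The young anti-PD-1 group was 2 months old and received anti-PD-1. Antibodies were injected into the peritoneum, and for anti-PD-1 and control antibody the labels give days 3, 7 and 11 after tumour inoculation. Every mouse carried the tumour, and neither a group without tumour nor a young group without anti-PD-1 is among the samples, so neither the effect of the tumour nor an interplay of age with treatment could be tested. The labels do not tie each library to a separate mouse, so the p-values reflect only how far these libraries differ, which may be technical. Nor do the labels say whether the lungs were flushed of blood.

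Platelets are small cell fragments without a nucleus that circulate in blood, seal damaged vessels and release chemokines and growth factors from their granules. They carry messenger RNA packed into them by megakaryocytes, large cells that mature chiefly in bone marrow. In mice, megakaryocytes also sit in the vessels of the lung and release platelets there. In RNA from a whole lung, fewer cells of a type and less RNA per cell cannot be told apart, and RNA of platelets cannot be told apart from RNA of megakaryocytes.

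Many promoters of megakaryocyte genes are known to hold binding words of GATA factors and of ETS factors such as FLI1. The 300 bases around the gene start (250 before, 50 after) of 8 of the 9 genes were therefore searched in RefSeq sequence of build GRCm38.p6. Itgb3 was not matched. The gene start is the one that goes with that sequence, and it can differ from the coordinates given below. For Itga2b the window was chr11:102469834-102470133 (minus strand), while the gene in the count table ends at 102470122. Most of that window thus lies inside the gene as counted. The words searched on both strands were AGATAA and TGATAA for GATA, and AGGAAG and CGGAAG for ETS. The ETS word AGGAAG can run into AGATAA through the shared letters AG, but no match in these genes did so. Pf4, Gp1ba and Gp5 held both kinds of word and are shown with Ppbp, the neighbour of Pf4, which held neither. The sequences run 5′ to 3′ on the strand of the gene, with the matches in capitals. Pf4 is at chr5:90772185-90772484 (plus strand), Gp1ba at chr11:70638872-70639171 (plus strand), Gp5 at chr16:30310732-30311031 (minus strand) and Ppbp at chr5:90768268-90768567 (plus strand).
Pf4: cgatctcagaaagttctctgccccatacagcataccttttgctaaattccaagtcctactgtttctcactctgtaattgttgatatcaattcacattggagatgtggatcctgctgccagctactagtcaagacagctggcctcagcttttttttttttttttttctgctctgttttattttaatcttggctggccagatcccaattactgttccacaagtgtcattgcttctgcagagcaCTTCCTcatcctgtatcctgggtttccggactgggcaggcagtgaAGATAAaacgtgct
Gp1ba: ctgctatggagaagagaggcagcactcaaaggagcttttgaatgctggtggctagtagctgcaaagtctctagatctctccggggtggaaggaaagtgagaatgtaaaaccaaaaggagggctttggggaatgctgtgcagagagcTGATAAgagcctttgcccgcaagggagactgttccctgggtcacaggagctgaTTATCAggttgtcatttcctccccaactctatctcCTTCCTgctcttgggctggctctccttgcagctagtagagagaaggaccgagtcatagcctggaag
Gp5: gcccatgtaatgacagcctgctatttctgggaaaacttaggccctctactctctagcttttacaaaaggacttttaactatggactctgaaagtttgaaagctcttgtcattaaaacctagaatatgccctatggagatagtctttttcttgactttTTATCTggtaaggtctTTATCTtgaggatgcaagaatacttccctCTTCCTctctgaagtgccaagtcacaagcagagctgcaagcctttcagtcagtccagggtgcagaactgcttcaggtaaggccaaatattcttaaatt
Ppbp: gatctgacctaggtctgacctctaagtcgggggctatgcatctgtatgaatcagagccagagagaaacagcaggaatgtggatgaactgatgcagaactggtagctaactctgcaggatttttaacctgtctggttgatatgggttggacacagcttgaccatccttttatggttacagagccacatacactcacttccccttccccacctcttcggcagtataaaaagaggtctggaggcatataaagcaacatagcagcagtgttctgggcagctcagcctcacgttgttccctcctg
In Pf4 the ETS word starts at position -9 and the GATA word at position 36, counted from 0 at the gene start used for the search. In Gp1ba both GATA words, at -104 and -51, lie before the ETS word at -16, and in Gp5 the GATA words at -93 and -77 lie before the ETS word at -48. Of the other genes searched, Gp6 held a GATA word only, Itga2b and Gp9 held ETS words only, and Treml1 held neither. A GATA word was thus present in 4 of 8 genes, against 18.6% of all 32851 promoters of this length in the table. An ETS word was present in 5 of 8, against 46.5%, and both in 3 of 8, against 7.7%. These are matches of letters, not measured binding sites.

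Counts summed to 16021877 to 22058620 per library, and the 9 genes had between 90 counts (Gp6, first young library) and 10428 counts (Itga2b, first aged control library). Levels below are CPM, counts scaled to a common library size, with TMM factors that even out library composition. Fold changes are log2 values ± SE from 1 edgeR quasi-likelihood fit to the 12 libraries, and a gene is called where the Benjamini-Hochberg adjusted p over the 18556 genes tested was under 0.05. Mitochondrial transcripts took 13.4% of counts in the combination, 9.35% in the aged anti-PD-1, 8.56% in the aged control and 6.76% in the young group. Lung epithelial markers such as Sftpc and Ager were abundant in every library (summed level of 8 genes 28700 to 56357 CPM).

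The 9 genes together were lowest in young lungs and highest in aged control lungs, with both aged groups given anti-PD-1 in between. Their summed level was 773, 1265 and 1109.5 CPM in the combination libraries, 1137, 1043 and 1082 CPM in the aged anti-PD-1 libraries, 1930.2, 1997 and 1511 CPM in the aged control libraries and 222, 425 and 359.8 CPM in the young libraries. Every aged library was above every young one, and the aged control libraries were above all the others, while the combination libraries spread around the aged anti-PD-1 ones. The first combination library and the first young library were the lowest of their groups for each of the 9 genes. The sum made up 0.0963 ± 0.0192% of all counts in combination lungs, 0.115 ± 0.00663% in aged anti-PD-1, 0.178 ± 0.0215% in aged control and 0.0347 ± 0.0108% in young lungs (SD, n = 3 each). Gene by gene, all 9 had the 9 aged libraries above the 3 young ones, an order found in 5.5% of the genes tested. For 8 of the 9, all but Pf4, the 3 control libraries were above the 9 others, as in 0.954% of the genes tested, and both orders held together in 0.329% of the genes tested (61 genes).

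**Figure D1:**
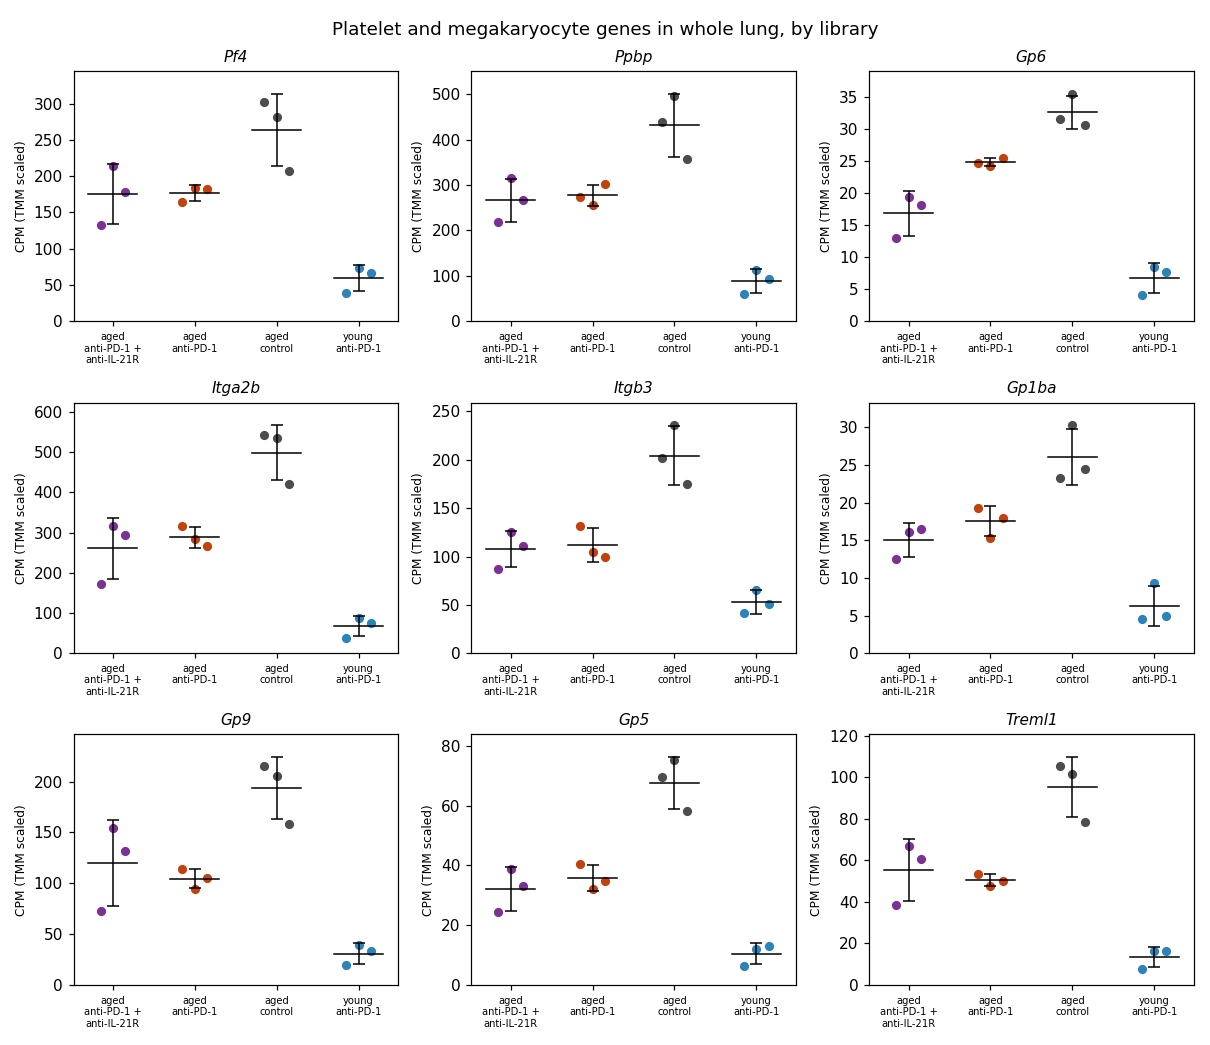
Level of each of the 9 genes in each library, in TMM-scaled CPM on a linear axis from 0. Points are libraries (3 per group), lines are group means and bars ±1 SD. Every gene is lowest in the young libraries, and every gene but Pf4 has its 3 highest values in the aged control libraries.

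Pf4 and Ppbp lie side by side on chromosome 5 and encode CXC chemokines stored in the alpha granules of platelets. Pf4, platelet factor 4 (ENSMUSG00000029373, mm10 chromosome 5, 90772435 to 90773383), is used as a marker of the lineage and binds heparin. It stood at 132.5, 215 and 179 CPM in combination, 164, 184 and 182 CPM in aged anti-PD-1, 302, 282 and 207 CPM in aged control and 39.1, 73.6 and 65.9 CPM in young lungs. The third control library was below the second combination library, and this was the only overlap between control and any other group among the 9 genes. Ppbp, pro-platelet basic protein (ENSMUSG00000029372, 90768518 to 90770063), is cut into a chemokine for neutrophils. It reached 219, 314 and 266 CPM in combination, 274, 256 and 302 CPM in aged anti-PD-1, 439.5, 497 and 358 CPM in aged control and 60.6, 113 and 92.2 CPM in young lungs. The ratio of Ppbp to Pf4 stayed between 1.39 and 1.76 in all 12 libraries, with no group apart from the others.

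Itga2b and Itgb3, both on chromosome 11, encode integrin alpha IIb and integrin beta 3, which pair into the fibrinogen receptor that links platelets in a clot. The alpha chain is made almost only by the megakaryocyte lineage, while the beta chain also pairs with integrin alpha V in other cells. Itga2b (ENSMUSG00000034664, 102453297 to 102470122) had 173, 315 and 294 CPM in combination, 316, 284 and 265 CPM in aged anti-PD-1, 542, 534 and 421 CPM in aged control and 38.5, 87.0 and 75.2 CPM in young lungs. Itgb3 (ENSMUSG00000020689, 104608000 to 104670476) had 87.4, 125 and 111 CPM in combination, 131.5, 105 and 99.1 CPM in aged anti-PD-1, 202, 236 and 175 CPM in aged control and 42.0, 65.7 and 51.1 CPM in young lungs. Young and aged libraries were further apart for the alpha chain than for the beta chain, while the mean in aged anti-PD-1 lungs was 0.578 of that in aged control lungs for Itga2b and 0.548 for Itgb3. Itga2b over Itgb3 was 1.98, 2.52 and 2.65 in combination, 2.41, 2.70 and 2.68 in lungs of aged mice given anti-PD-1 alone, 2.69, 2.27 and 2.41 in aged control and 0.916, 1.32 and 1.47 in young lungs. All 9 aged libraries lay above all 3 young ones, and the 3 aged groups overlapped. Itga2b over Pf4 was 1.31 to 1.64 in combination, 1.46 to 1.93 in aged anti-PD-1, 1.79 to 2.04 in aged control and 0.986 to 1.18 in young lungs, again with every aged library above the young ones. Itgav, the alpha V chain, was not called between aged and young anti-PD-1 lungs (-0.20 ± 0.12, edgeR adjusted p 0.318), at 45.3 ± 1.58 CPM in aged and 51.9 ± 3.86 CPM in young lungs.

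Gp1ba, Gp9 and Gp5 encode 3 of the 4 chains of the glycoprotein Ib-IX-V complex, which holds platelets to von Willebrand factor on exposed vessel walls under flow. Gp1ba carries the binding site (ENSMUSG00000050675, chromosome 11, 70639122 to 70642036) and was at 12.5, 16.1 and 16.6 CPM in combination, 19.3, 15.3 and 18.0 CPM in aged anti-PD-1, 23.3, 30.2 and 24.4 CPM in aged control and 4.52, 9.31 and 4.999 CPM in young lungs. The small chain Gp9 (ENSMUSG00000030054, chromosome 6, 87778072 to 87779768) is needed for the complex to reach the surface. It was at 73.0, 155 and 132 CPM in combination, 114, 94.6 and 105 CPM in aged anti-PD-1, 216, 206 and 158 CPM in aged control and 19.3, 39.7 and 33.2 CPM in young lungs. Gp5 (ENSMUSG00000047953, chromosome 16, 30307686 to 30310779) is a chain that thrombin cleaves. Its level was 24.3, 39.0 and 33.0 CPM in combination, 40.5, 32.1 and 34.8 CPM in aged anti-PD-1, 69.5, 75.2 and 58.2 CPM in aged control and 6.39, 12.01 and 13.2 CPM in young lungs. For all 3 chains the control libraries were highest and the young lowest without overlap. The ratio of Gp9 to Gp5 was 3.00, 3.97 and 3.996 in combination, 2.81, 2.95 and 3.03 in lungs of aged mice given anti-PD-1 alone, 3.10, 2.74 and 2.72 in aged control and 3.01, 3.30 and 2.52 in young lungs. The second and the third combination libraries were above every other library in this ratio, and the first combination library was not.

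Gp6 encodes glycoprotein VI, the main activating receptor for collagen (ENSMUSG00000078810, chromosome 7, 4363965 to 4397744). It had 12.9, 19.4 and 18.1 CPM in combination, 24.8, 24.2 and 25.5 CPM in aged anti-PD-1, 31.6, 35.5 and 30.7 CPM in aged control and 4.11, 8.46 and 7.69 CPM in young lungs. Alone among the 9, Gp6 had its 4 groups fully apart, with the combination libraries between the young and the aged anti-PD-1 libraries. Treml1 encodes TLT-1, a receptor of the alpha granules that reaches the surface on activation (ENSMUSG00000023993, chromosome 17, 48359916 to 48367174). Its values were 38.3, 66.7 and 60.5 CPM in combination, 53.4, 47.9 and 50.1 CPM in aged anti-PD-1, 105, 102 and 78.6 CPM in aged control and 7.85, 16.2 and 16.3 CPM in young lungs. Treml1 was higher than the aged anti-PD-1 libraries in the second and the third combination libraries and lower in the first.

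**Figure D2:**
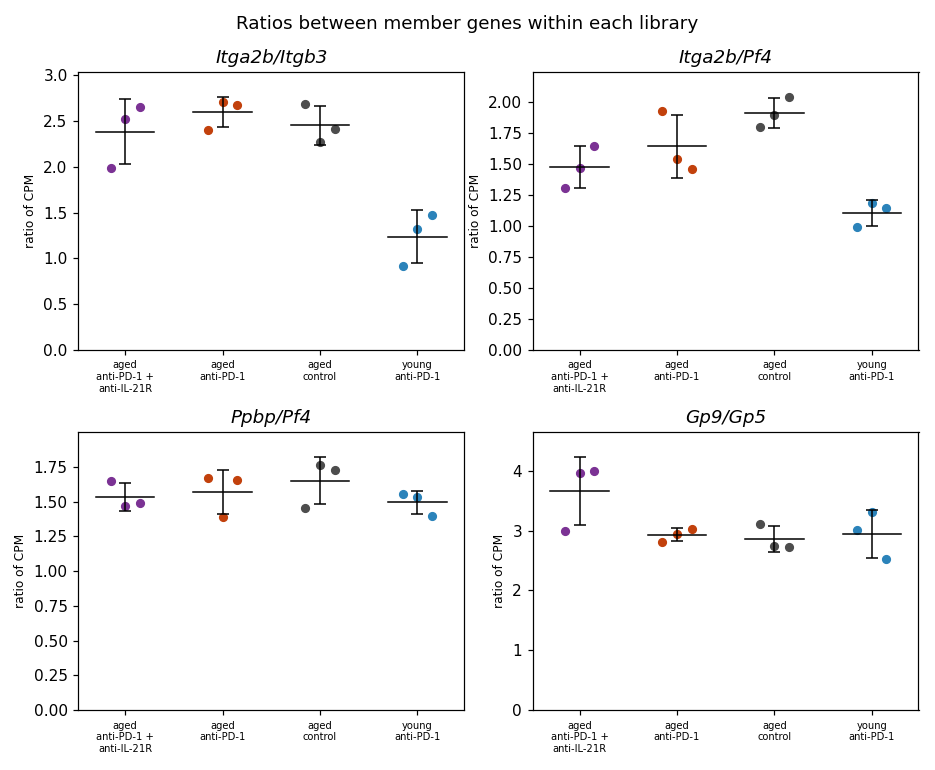
Ratio of the CPM of gene pairs within each library, on linear axes from 0, with group means and ±1 SD (n = 3). Itga2b over Itgb3 is 0.916 to 1.47 in young libraries and at least 1.98 in aged ones, and Ppbp over Pf4 stays between 1.39 and 1.76.

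Divided by exon length, the genes kept nearly 1 order in every library. Pf4 and Ppbp shared ranks 1 and 2, Gp9 was always at rank 3, Itga2b, Itgb3 and Treml1 shared ranks 4 to 6, and Gp5, Gp1ba and Gp6 always had ranks 7, 8 and 9. In aged control lungs Ppbp stood at 398 ± 64.6 and Pf4 at 366 ± 69.6 CPM per kb (SD, n = 3), a gap within their spread. Gp9 reached 219 ± 34.7, Itga2b 91.5 ± 12.4, Treml1 67.9 ± 10.3, Itgb3 34.6 ± 5.17, Gp5 30.8 ± 3.92, Gp1ba 9.56 ± 1.37 and Gp6 5.53 ± 0.438 CPM per kb there. Gp1ba, the chain with the binding site, was thus the lowest per length of the 3 Ib-IX-V chains measured, in all 12 libraries. As a share of the summed level per length of the 9 genes, Gp6 made up 0.381 ± 0.0187% in combination, 0.557 ± 0.00507% in aged anti-PD-1, 0.458 ± 0.0579% in aged control and 0.476 ± 0.0317% in young lungs (SD, n = 3 each). The combination libraries (0.359 to 0.392%) were below every other library and the aged anti-PD-1 libraries (0.554 to 0.563%) above every other.

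Between libraries of the same group the 9 genes also moved together. After subtraction of each group mean, the 36 pairs of genes had a median Pearson correlation of log2 CPM of 0.900 over the 12 libraries (range 0.601 to 0.982). Without that step the median was 0.976 (0.940 to 0.996). These are descriptions without a test, since the genes share library and depth and the young libraries stand apart. No such value is given for pairs of other genes. The first combination and the first young library, each lowest of its group for all 9 genes, add to the values within groups. Gp1ba (median with the others 0.710 within groups) and Itgb3 (0.822) followed the rest least.

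The comparison of aged with young lungs under the same anti-PD-1 treatment asks what differed with age. All 9 genes rose in aged anti-PD-1 lungs and 0 fell, where 8.09% of the genes tested were called higher and 7.16% lower, and their median log2 fold change was 1.77, against -0.01 over all genes tested. All 9 also had aged and young libraries apart, as did 19.7% of genes in that direction and 19.9% in the other. Itga2b rose most, to 288 ± 25.8 CPM in aged anti-PD-1 against 66.9 ± 25.3 CPM in young lungs (SD, n = 3), a log2 fold change of 2.11 ± 0.28 with an edgeR adjusted p of 0.000869. Itgb3 rose least, at 112 ± 17.3 against 53.0 ± 11.9 CPM (1.08 ± 0.18, edgeR adjusted p 0.0025). Treml1 (1.91 ± 0.26, edgeR adjusted p 0.00092) and Gp6 (1.88 ± 0.22, edgeR adjusted p 0.000311) were next to Itga2b. Among the von Willebrand factor receptor chains, Gp5 (1.77 ± 0.23, edgeR adjusted p 0.000845), Gp9 (1.77 ± 0.28, edgeR adjusted p 0.00221) and Gp1ba (1.49 ± 0.23, edgeR adjusted p 0.00168) rose. The chemokines rose by 1.65 ± 0.20 for Ppbp (edgeR adjusted p 0.000483) and 1.57 ± 0.23 for Pf4 (edgeR adjusted p 0.00134). All 9 calls were kept in each alternative run and without any 1 library. Differences in fold change between the genes were not tested.

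**Figure D3:**
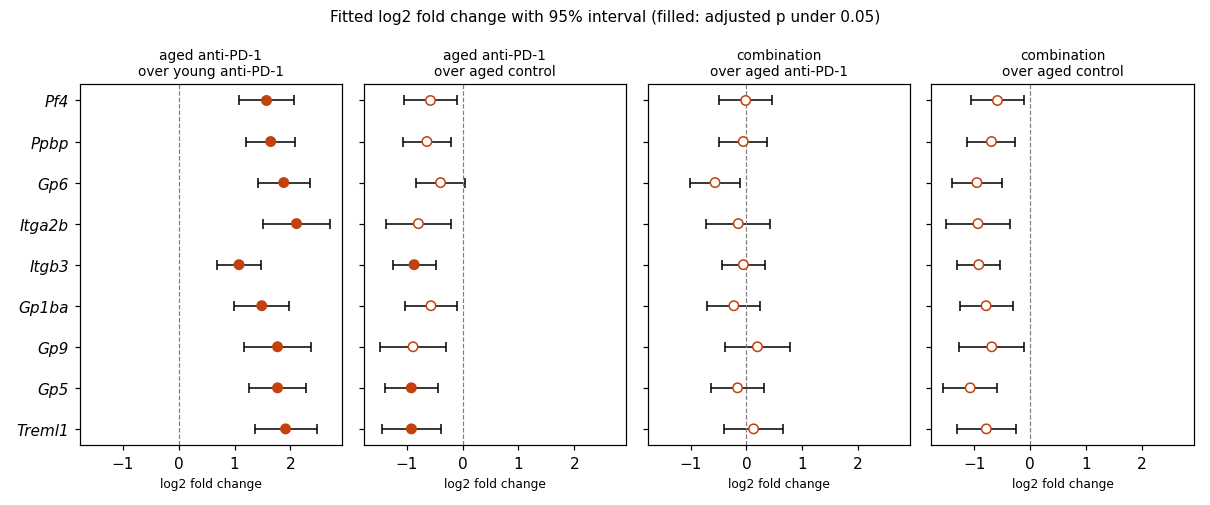
Fitted log2 fold change of each gene in the 4 comparisons, with 95% intervals from the edgeR fit, and filled points where the adjusted p was under 0.05. All 9 are filled in the age comparison, Itgb3, Gp5 and Treml1 in aged anti-PD-1 over aged control, and none where the combination group is involved.

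Among other platelet receptors 8 of 16 rose with age and 0 fell (median 0.89). Clec1b, the receptor for podoplanin, had 88.3 ± 4.24 CPM in aged anti-PD-1 and 27.2 ± 5.18 CPM in young lungs (1.70 ± 0.19, edgeR adjusted p 0.000311). P2ry12, the ADP receptor that antiplatelet drugs block, had 31.8 ± 6.17 and 7.82 ± 2.09 CPM in the same order (2.02 ± 0.23, edgeR adjusted p 0.000311). F2rl2, a thrombin receptor (1.28 ± 0.16, edgeR adjusted p 0.000442), and Mpig6b, an inhibitory receptor listed as G6b in the files (2.15 ± 0.28, edgeR adjusted p 0.000903), rose as well. In a list of partners and ligands, 6 of 12 rose and 1 fell, and 2 to 6 rose and 0 to 2 fell when 1 library was left out. That list also holds Pdpn and Selplg, which bind Clec1b and Selp and not the 9 genes. Pdpn was the 1 that fell (-0.81, edgeR adjusted p 0.0292), and Selplg was among those that rose (0.60, edgeR adjusted p 0.0193). Both were named after their values were seen. Of the partner list, Gp1bb is also among the other receptors, Vwf among the granule and endothelial genes, and Cxcr2 among the neutrophil markers. These lists share genes, so their counts are not separate. Gp1bb, the chain of the Ib-IX-V complex that is not among the 9, rose by 2.23 ± 0.29 (edgeR adjusted p 0.00091), at 68.8 ± 15.3 CPM in aged and 14.6 ± 4.48 CPM in young lungs. Gp1bb overlaps Sept5, Clec1b overlaps Clec9a, Mpig6b overlaps Ly6g6c, P2ry12 overlaps Med12l and F2rl2 overlaps Iqgap2, so their counts are less certain, while the 9 genes overlap no gene with counts. Fcer1g, the signalling chain of Gp6, rose by 0.65 ± 0.15 (edgeR adjusted p 0.00969). It was not called when aged library 3 was left out (edgeR adjusted p 0.0508), and many myeloid cells make it too. Cxcr2, the receptor that Ppbp products act on, rose by 1.52 ± 0.35 (edgeR adjusted p 0.0148), but not when young library 1 or 3 was left out (highest edgeR adjusted p 0.0667). Cxcr3, a receptor reported for Pf4, rose by 1.00 ± 0.24 (edgeR adjusted p 0.0138), but not when aged library 3 or young library 2 or 3 was left out (highest edgeR adjusted p 0.0745).

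Of 16 genes for platelet signalling and cytoskeleton 12 rose with age and 1 fell (median 0.80). When 1 library was left out, 9 to 12 rose and 0 to 1 fell. Fermt3, kindlin-3, which activates the integrin (1.35 ± 0.14), Rgs18, a brake on G protein signals (1.89 ± 0.20), and Alox12, platelet 12-lipoxygenase (1.83 ± 0.20), each had an edgeR adjusted p of 0.000311. Rasgrp2, an activator of Rap1 upstream of the integrin, rose by 0.81 ± 0.11 (edgeR adjusted p 0.000745). Of 15 genes in the granule list 8 rose and 3 fell (median 0.39), and 5 to 7 rose and 1 to 3 fell when 1 library was left out. Those with the smallest p were Mmrn1, multimerin 1 (1.14 ± 0.13), F5, coagulation factor V (1.62 ± 0.20), F13a1, the factor XIII A chain (1.05 ± 0.13), and Clu, clusterin (0.62 ± 0.10), with edgeR adjusted p values up to 0.00164. Sparc (fell by 1.13 ± 0.21, edgeR adjusted p 0.00413), Pdgfa (fell by 0.75 ± 0.22, edgeR adjusted p 0.0376) and Thbs1 (fell by 0.63 ± 0.19, edgeR adjusted p 0.0374) are made by stromal cells as well, and were named after their values were seen. Mmrn1, which rose, is also made by endothelium. In RNA of whole lung no rise or fall in this list can be assigned to platelets. Neither the Thbs1 nor the Pdgfa call held without aged library 2 or 3 or any young library (highest edgeR adjusted p 0.183 for Thbs1 and 0.151 for Pdgfa).

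Of 14 genes of megakaryocyte transcription and growth 6 rose and 1 fell (median 0.33). The transcription factors Nfe2, needed for platelet release (1.30 ± 0.17, edgeR adjusted p 0.000486), and Fli1, an ETS factor also found in endothelium (0.60 ± 0.11, edgeR adjusted p 0.00405), rose. Gata1, the GATA factor of megakaryocytes and red cells, also rose, by 1.01 ± 0.28 (edgeR adjusted p 0.0294), at 4.12 ± 0.778 CPM in aged and 2.06 ± 0.692 CPM in young lungs. That call did not hold without aged library 1 or 3 or young library 1 or 2 (highest edgeR adjusted p 0.1). Tal1 (0.86, edgeR adjusted p 0.00857) and Lyl1 (0.65, edgeR adjusted p 0.00671), named after their values were seen, rose too. Lyl1 overlaps Nfix, so its counts are less certain. Rab27b, a GTPase of dense granules, fell by 0.78 ± 0.14 (edgeR adjusted p 0.00376). Runx1 (-0.05 ± 0.16, edgeR adjusted p 0.864) and Zfpm1 (0.14 ± 0.13, edgeR adjusted p 0.517) were not called.

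Markers of other cells of the blood and lung were followed beside these genes. None of the 9 erythroid markers tested was called between aged and young anti-PD-1 lungs (median -0.48), and their summed level was 9969 to 13137 CPM in aged against 12380 to 15513 CPM in young lungs. Klf1, Rhag and Car1 were too low to test, with Klf1 and Rhag at 0 counts in some libraries. Resident interstitial macrophage markers had 10 of 15 higher (median 0.91), with a summed level of 3484 to 3913 CPM in aged and 3209 to 3679 CPM in young lungs. Cbr2, named here for its counts, weighs most in that sum. It had 30802 to 61162 counts per library, against at most 7033 for any other marker of that list (Lyve1). The macrophage sums here and below therefore say little about the other markers. F13a1, also counted in the granule list above, is one of the macrophage markers, so its rise cannot be assigned to platelet granules. Blood endothelial markers had 1 of 12 higher, Vwf, whose product also fills platelet granules (summed level 3152 to 3545 CPM in aged and 2636 to 3161 CPM in young lungs). That call was lost without young library 3 (edgeR adjusted p 0.0715). Neutrophil markers had 1 of 12 higher, Cxcr2, or 0 to 4 when 1 library was left out (812 to 1061 CPM in aged and 582 to 894 CPM in young lungs), and mast cell and basophil markers 1 of 9, Gata2. Lung epithelial markers had 6 of 8 lower, or 2 to 5 when 1 library was left out (28700 to 33242 CPM in aged and 43654 to 56357 CPM in young lungs). No marker tested was at 0 in any library. The part of these cells in the age difference of the 9 genes was not tested.

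**Figure D4:**
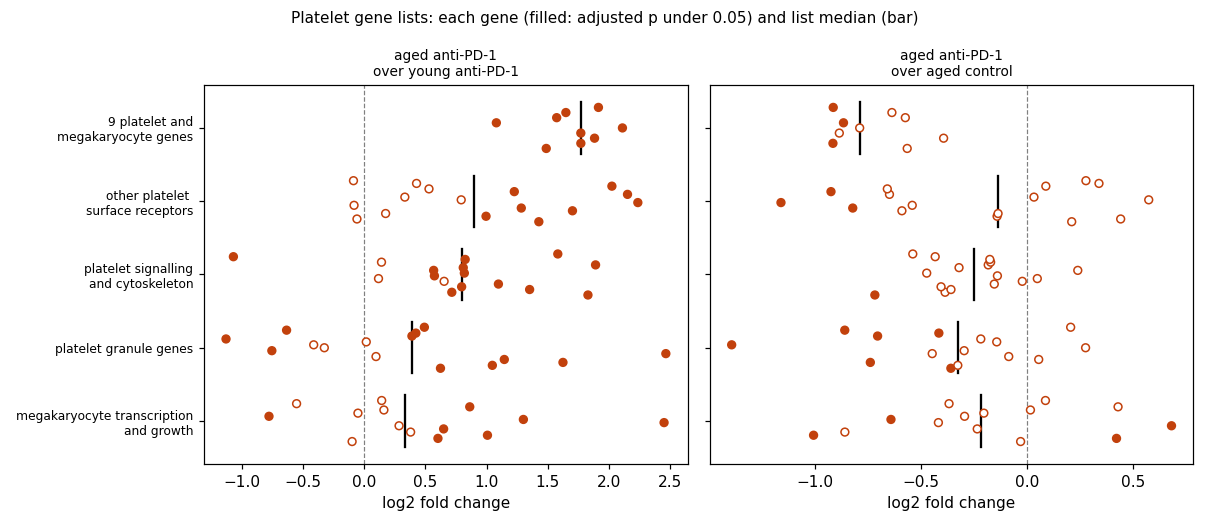
Log2 fold change of each gene in the 9-gene set and in 4 further platelet and megakaryocyte lists, in aged anti-PD-1 over young anti-PD-1 (left) and over aged control lungs (right). Filled points had an adjusted p under 0.05 and bars are list medians, which run from 1.77 for the 9 genes to 0.33 for transcription and growth genes on the left.

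In aged mice, the same 9 genes were lower under anti-PD-1 than under control antibody, and 3 of them fell by the test. Itgb3 (fell by 0.87 ± 0.18, edgeR adjusted p 0.0122), Gp5 (fell by 0.92 ± 0.22, edgeR adjusted p 0.023) and Treml1 (fell by 0.92 ± 0.24, edgeR adjusted p 0.0319) were called, where 5.58% of all genes tested were called lower and 5.34% higher. Mean levels were 112 ± 17.3 against 204 ± 30.5 CPM for Itgb3, 35.8 ± 4.29 against 67.6 ± 8.61 CPM for Gp5, and 50.5 ± 2.77 against 95.2 ± 14.5 CPM for Treml1, with aged anti-PD-1 lungs first (SD, n = 3 each). All 9 genes had the 3 anti-PD-1 libraries below the 3 control libraries, as did 16.4% of genes tested, and the median log2 fold change was -0.79, against -0.02 over all genes. Gp9 (-0.89 ± 0.27, edgeR adjusted p 0.0536), Ppbp (-0.64 ± 0.20, edgeR adjusted p 0.056), Itga2b (-0.79 ± 0.27, edgeR adjusted p 0.0726), Gp1ba (-0.57 ± 0.22, edgeR adjusted p 0.105), Pf4 (-0.57 ± 0.22, edgeR adjusted p 0.109) and Gp6 (-0.39 ± 0.20, edgeR adjusted p 0.21) were not called. The count depended on the libraries and the tool: it was 1 without anti-PD-1 library 2, anti-PD-1 library 3 or control library 2, up to 4 without another library, and 6 by DESeq2. Itgb3 was called in every fit run. Gp5 lost its call without any of those 3 libraries (highest edgeR adjusted p 0.0758), and Treml1 lost its call without any library but control library 3 (highest edgeR adjusted p 0.0999).

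Other platelet receptors had 3 of 16 lower and 0 higher (median -0.14), with 1 to 4 lower when 1 library was left out. F2rl2 fell by 0.82 ± 0.15 (edgeR adjusted p 0.00745), at 12.9 ± 0.483 CPM in aged anti-PD-1 and 22.8 ± 1.92 CPM in aged control lungs. P2rx1, an ATP-gated channel (fell by 0.93 ± 0.21, edgeR adjusted p 0.0179), and Gp1bb (fell by 1.16 ± 0.28, edgeR adjusted p 0.0234) were called as well. P2rx1 lost its call without anti-PD-1 library 2 or 3 or control library 2 (highest edgeR adjusted p 0.064), and Gp1bb without any of those or control library 1 (highest edgeR adjusted p 0.0827). Gp1bb was the 1 of 12 partners and ligands called, and Alox12 the 1 of 16 signalling genes (fell by 0.72 ± 0.19, edgeR adjusted p 0.034). The Alox12 call was lost without any library but control library 3 (highest edgeR adjusted p 0.107).

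Granule genes had 6 of 15 lower and 0 higher (median -0.33), with 2 to 5 lower when 1 library was left out. Selp, P-selectin, which platelets and endothelium bring to the surface on activation, was at 12.3 ± 1.33 CPM in aged anti-PD-1 and 32.4 ± 5.74 CPM in aged control lungs (fell by 1.40 ± 0.20, edgeR adjusted p 0.00407). Selp and F5 overlap the noncoding gene Gm16548 and Selp also Gm16587 on the other strand, Thbs1 overlaps Gm29233, so their counts are less certain. Srgn, the granule proteoglycan serglycin, fell by 0.71 ± 0.13 (edgeR adjusted p 0.00691). Thbs1, thrombospondin 1, fell by 0.86 ± 0.19 (edgeR adjusted p 0.0152), and F5 fell by 0.74 ± 0.19 (edgeR adjusted p 0.0271). Without anti-PD-1 library 2 or 3 or control library 2 neither was called, and F5 was not called without anti-PD-1 library 1 either (highest edgeR adjusted p 0.0625 for Thbs1 and 0.0967 for F5). Among transcription and growth genes 2 of 14 rose and 2 fell. Gata1 fell by 1.01 ± 0.26 (edgeR adjusted p 0.0289) and Nfe2 fell by 0.64 ± 0.16 (edgeR adjusted p 0.0239), while Meis1 (0.68 ± 0.17, edgeR adjusted p 0.0228) and Fli1 (0.42 ± 0.11, edgeR adjusted p 0.0303) rose. Each of these 4 calls was lost without control library 2 and without other libraries (highest edgeR adjusted p 0.097 for Gata1, 0.0942 for Nfe2, 0.0832 for Meis1 and 0.0851 for Fli1).

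Neutrophil markers moved with these genes here: 4 of 12 fell (S100a8, S100a9, Retnlg and Csf3r) and 0 rose, or 2 to 4 when 1 library was left out, with a summed level of 812 to 1061 CPM in aged anti-PD-1 and 1827 to 3309 CPM in aged control lungs. Without anti-PD-1 library 1 or 3 Retnlg and Csf3r were not called, nor was Csf3r without control library 2 (highest edgeR adjusted p 0.074 for Retnlg and 0.0793 for Csf3r). Blood endothelial markers had 7 of 12 higher (2 to 9 when 1 library was left out), at 3152 to 3545 CPM in aged anti-PD-1 and 1877 to 2953 CPM in aged control lungs. Resident interstitial macrophage markers had 5 of 15 higher (2 to 5 when 1 library was left out). Their sum, in which Cbr2 weighs most, was 3484 to 3913 CPM in aged anti-PD-1 and 3524 to 3900.2 CPM in aged control lungs. Erythroid markers had 0 of 9 called (median -0.51), at 9969 to 13137 CPM in aged anti-PD-1 and 12734 to 20705 CPM in aged control lungs. Mast cell and basophil markers had 2 of 9 higher (Kit and Gata2) and 1 lower (Hdc), or 0 to 2 higher and 1 to 3 lower when 1 library was left out. The rest of that list, Cpa3, Ms4a2, Tpsb2, Cma1, Mcpt4 and Mcpt8, was not called in any comparison of all 12 libraries. Lung epithelial markers had 0 of 8 called. The part of these cells in the lower level of the 9 genes was not tested.

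Adding anti-IL-21R to anti-PD-1 gave no call among the 9 genes, where 9.02% of genes tested were called, 4.67% higher and 4.35% lower, and DESeq2 called none of the 9 either. At an unadjusted p under 0.05, 1 of the 9 was lower (Gp6) and 0 were higher, as were 13.2% of genes in each direction. Their median log2 fold change was -0.06, against -0.01 over all genes. Pf4 averaged 175 ± 41.2 CPM in combination and 177 ± 11.2 CPM in aged anti-PD-1 lungs, with a log2 fold change of -0.01 (95% interval -0.49 to 0.47, edgeR adjusted p 0.979). Ppbp was at -0.06 (-0.48 to 0.37), Itgb3 at -0.06 (-0.44 to 0.33), Itga2b at -0.15 (-0.72 to 0.43), Gp5 at -0.16 (-0.64 to 0.32) and Gp1ba at -0.23 (-0.70 to 0.25). Treml1 at 0.13 (-0.40 to 0.65) and Gp9 at 0.20 (-0.39 to 0.78) had positive estimates. These intervals do not show that the groups were alike, and the sign of 7 of the 9 estimates changed under at least 1 alternative. Gp6 was the exception in its range: 12.9 to 19.4 CPM in combination and 24.2 to 25.5 CPM in aged anti-PD-1 lungs, without overlap, as for 16.5% of genes in that direction. Its log2 fold change was -0.56 ± 0.21 (95% interval -1.003 to -0.12) with an edgeR adjusted p of 0.0996, and it was called with library totals in place of TMM (edgeR adjusted p 0.0206) and in a fit of the 2 groups alone (edgeR adjusted p 0.0483). Over all alternatives its adjusted p ran from 0.0206 to 0.254.

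Other platelet genes were mixed in this comparison. Of 16 other receptors 0 were called, and of 16 signalling genes 1 fell, Ptgs1, cyclooxygenase 1 (fell by 0.70 ± 0.09, edgeR adjusted p 0.00192), at 45.4 ± 2.38 CPM in combination and 73.7 ± 6.47 CPM in aged anti-PD-1 lungs. Granule genes had 3 of 15 higher and 2 lower, or 1 to 3 higher and 0 to 2 lower when 1 library was left out. Srgn rose by 0.68 ± 0.13 (edgeR adjusted p 0.00883) and Thbs1 by 0.89 ± 0.19 (edgeR adjusted p 0.0144), while Vwf (fell by 0.62 ± 0.12, edgeR adjusted p 0.011) and Mmrn1 (fell by 0.60 ± 0.13, edgeR adjusted p 0.0141), both also made by endothelium, fell. The Thbs1, Vwf and Mmrn1 calls were each lost without combination library 2 (edgeR adjusted p 0.0664 for Thbs1, 0.058 for Vwf and 0.0648 for Mmrn1). Thbs1 also lost its call without anti-PD-1 library 2 (edgeR adjusted p 0.0593), and Mmrn1 without anti-PD-1 library 1 (edgeR adjusted p 0.0585). Vwf was the 1 of 12 partners and ligands called. Tal1 was the 1 of 14 transcription and growth genes called (fell by 0.70 ± 0.19, edgeR adjusted p 0.0345), and it lost that call without any 1 of the 6 libraries. Erythroid markers rose in 5 of 9 cases (median 1.28), Hbb-bs among them, or in 3 to 6 when 1 library was left out, and summed to 19034 to 46863 CPM in combination and 9969 to 13137 CPM in aged anti-PD-1 lungs. The next 3 sums are given with combination lungs first. Neutrophil markers had 4 of 12 higher, or 1 to 4 when 1 library was left out (1589 to 2422 against 812 to 1061 CPM). Macrophage markers had 6 of 15 lower (2586 to 3229 against 3484 to 3913 CPM, with Cbr2 weighing most). Endothelial markers had 7 of 12 lower, or 1 to 7 when 1 library was left out (1942 to 2492 against 3152 to 3545 CPM). Mast cell and basophil markers had 1 of 9 higher (Hdc) and 1 lower (Kit), or 1 to 2 higher and 0 to 2 lower when 1 library was left out, and lung epithelial markers 0 of 8 called. The part of these cells in the values of the 9 genes was not tested.

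**Figure D5:**
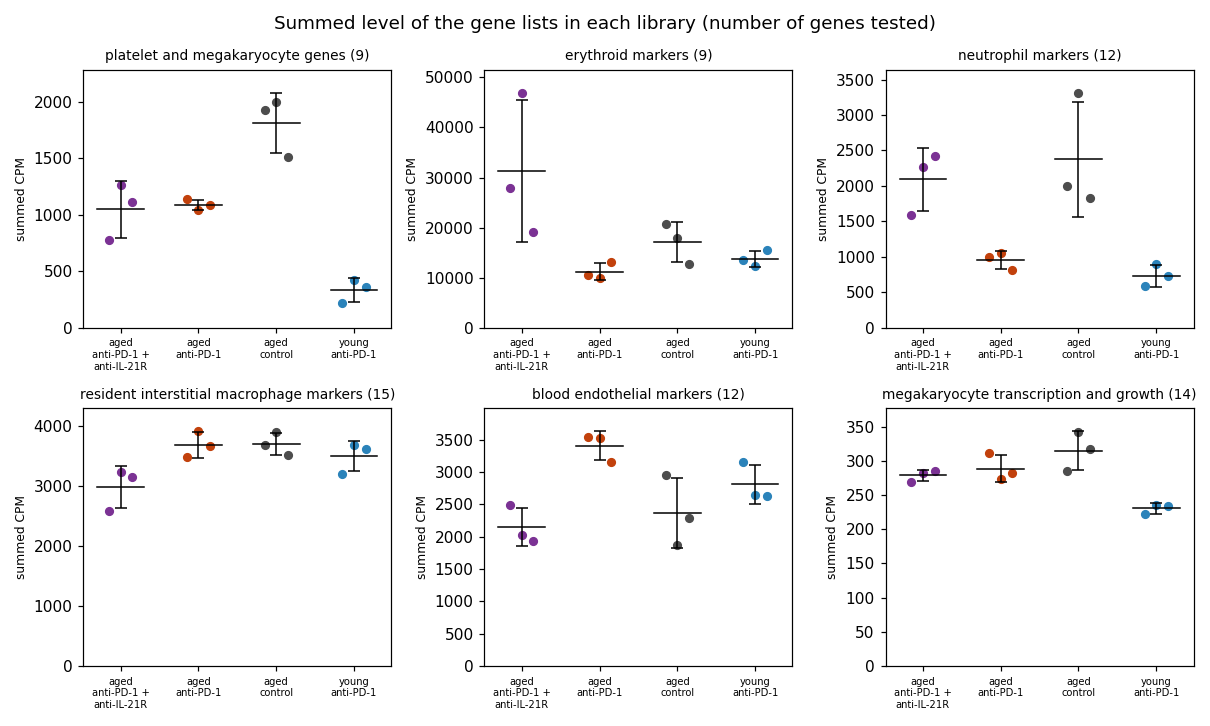
Summed CPM per library of the 9 genes and of 5 other marker lists, on linear axes from 0, with the number of genes tested in each title, group means and ±1 SD (n = 3). The sums of the 9 genes overlap between combination and aged anti-PD-1 libraries, where erythroid (19034 to 46863 against 9969 to 13137 CPM) and neutrophil sums are higher in combination libraries. In the macrophage sum Cbr2 weighs most.

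Set against aged control lungs, the combination group had lower estimates for all 9 genes (median -0.79, against -0.01 over all genes), but edgeR called 0 of 9 and 0 of all 18556 genes. At an unadjusted p under 0.05, 723 genes were lower (3.9%) and 505 higher (2.72%), and all 9 were among the lower ones. The control libraries were above the combination libraries without overlap for 8 of the 9, all but Pf4, as for 5.78% of genes. Gp5 averaged 32.1 ± 7.35 CPM in combination and 67.6 ± 8.61 CPM in control lungs (-1.08 ± 0.22, edgeR adjusted p 0.291). Gp6 (-0.96 ± 0.21, edgeR adjusted p 0.298), Itga2b (-0.94 ± 0.27, edgeR adjusted p 0.447) and Itgb3 (-0.92 ± 0.18, edgeR adjusted p 0.291) were next in size, and Itgb3 had the edgeR p of rank 7 among all genes. The remaining genes ran from -0.79 for Gp1ba to -0.59 for Pf4. DESeq2 called 68 genes in this comparison, 3 of them among the 9: Itgb3 (DESeq2 adjusted p 0.00297), Gp5 (DESeq2 adjusted p 0.0061) and Gp6 (DESeq2 adjusted p 0.00998). No other list had a gene called by edgeR here. Erythroid markers summed to 19034 to 46863 CPM in combination and 12734 to 20705 CPM in control lungs, and neutrophil markers to 1589 to 2422 and 1827 to 3309 CPM in the same order. The comparisons of combination lungs with the other 2 aged groups share the combination libraries, and both comparisons with control share the control libraries, so they are not independent of each other.

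Outside the 9, the genes whose log2 CPM followed their mean standardised level most closely over the 12 libraries were ranked by Pearson correlation. The highest values were 0.998 for Alox12, 0.992 for G6b, 0.991 for Mfsd2b, an exporter of sphingosine-1-phosphate in platelets and red cells, and 0.991 for Clec1b. Hpse, heparanase (0.987), F2rl2, Arhgap10 and Ache, acetylcholinesterase (each 0.985), and Ctla2b (0.984) were also among the first 10. Within the 9 aged libraries alone the correlations of the genes named up to this point ran from 0.911 for Ctla2b to 0.991 for Alox12. With group means subtracted, Alox12 (0.989), G6b (0.960), Draxin (0.938) and P2rx1 (0.930) were among the first 5. Over the 9 aged libraries, without that subtraction, Draxin was at 0.780 and P2rx1 at 0.939. The libraries share depth and preparation, the young ones stand apart, and no test was made of these values.

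Genes beside the 9 on the chromosomes were mostly not called. Of 35 tested genes within 50 kb, 6 were higher and 1 lower in aged than in young anti-PD-1 lungs (median 0.10). Over all genes tested 8.09% were higher and 7.16% lower. Beside Treml1, Trem2 (1.71 ± 0.30, edgeR adjusted p 0.0032), Treml2 (1.12 ± 0.19, edgeR adjusted p 0.00251) and Nfya (0.53 ± 0.13, edgeR adjusted p 0.0144) rose with age as Treml1 did. In aged lungs under anti-PD-1 against control antibody 0 were higher (5.34% of all genes) and 1 lower (5.58% of all genes). In combination against aged anti-PD-1 lungs 2 were higher (4.67%) and 0 lower (4.35%). In combination against aged control lungs 0 were called, as over all genes. Next to Pf4 and Ppbp, the neutrophil chemokine Cxcl3 fell by 2.24 ± 0.40 in aged lungs under anti-PD-1 against control antibody (edgeR adjusted p 0.00745) and rose by 2.61 ± 0.40 in combination against aged anti-PD-1 lungs (edgeR adjusted p 0.00541), where Pf4 and Ppbp were not called. The lung chemokine Cxcl15 fell by 0.90 ± 0.25 with age (edgeR adjusted p 0.0317), where Pf4 and Ppbp rose. All neighbours named here were named after their values were seen.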

How the data were processed

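RNA of 12 whole-lung libraries, 3 in each of 4 groups, was poly(A) selected and made into directional libraries, per the labels' protocols. The deposited values are raw read counts per gene, 1 column per library, with no normalization by the authors. The tools named are featureCounts 1.6.3, HISAT2, Trimmomatic and bcl2fastq 1.8.4, with build mm10, per the submitters' processing notes; options, annotation release and strand setting are not given in the sources used here. If strand was not used, reads of overlapping antisense genes cannot be told apart.

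The 9 genes, the further lists and the naming rule were chosen with earlier results of these data known. Counts of 16021877 to 22058620 per library were filtered with filterByExpr by group (minimum count 10, minimum total 15; 18556 of 49585 genes kept), scaled by TMM and fitted with robust edgeR 4.0.16 quasi-likelihood (R 4.3.3), 4 group means and 8 residual degrees of freedom. Tests were two-sided F tests, adjusted by Benjamini-Hochberg over all genes tested. SE was recovered from the fold change and F (its size over the root of F), and intervals use the t quantile. The test was tried on simulated counts. CPM per kb used exon lengths from GENCODE M21. Correlations used log2 CPM with a prior count of 2. From each list every called gene was to be named where at most 4 were called, otherwise the 4 with the smallest p. This was done for the platelet and megakaryocyte lists, while lists of other cells are given by counts and summed levels, with only some of the genes the rule picks. Other genes named are marked, apart from a few uncalled ones given for contrast.

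Alternatives were DESeq2 1.42.0, limma-voom (limma 3.58.1), RLE factors, library totals alone, no filter, a filter at mean CPM 1, scaling without mitochondrial, haemoglobin and immunoglobulin genes, the replicate number as a block, only the 2 groups compared, and each library left out. Libraries of a group differed by more than counting noise (chi-square per degree of freedom 8.95 to 44.4). Ahsp was not matched by symbol and is not used here. A gene that the naming rule picks is not reported here. Figures used Python 3.11.15 and matplotlib 3.10.9.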

Additional observations from a re-analysis of the deposited data

How the results depend on the processing

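All 9 genes were called higher in aged than in young anti-PD-1 lungs under every alternative and without any 1 library. In aged lungs under anti-PD-1 against control antibody, 3 were called lower, against 6 by DESeq2, 1 without the filter, 6 in a fit of the 2 groups alone, and 1 to 4 when 1 library was left out. In combination against aged anti-PD-1 lungs 0 were called, against 1 with library totals alone and 1 in a fit of the 2 groups alone (Gp6 in both); leaving out a library kept the count at 0. In combination against aged control lungs 0 were called, against 3 by DESeq2. Library totals alone moved the median of all genes in combination against aged anti-PD-1 lungs to -0.21. Estimates near 0 in that comparison changed sign. With library totals alone, Gp9 was at -0.0157 and Treml1 at -0.0806. Leaving out 1 library gave ranges of -0.33 to 0.0069 for Gp5, -0.0385 to 0.45 for Gp9, -0.31 to 0.0771 for Itga2b, -0.18 to 0.0775 for Itgb3, -0.19 to 0.15 for Pf4, -0.20 to 0.0662 for Ppbp and -0.0404 to 0.33 for Treml1, with the ends reached without combination library 1 or 2 or, for the upper end of Itgb3, aged anti-PD-1 library 1. The cause was not tested. Libraries with the same number did not pair: over 18 pairs the median correlation of their deviations was -0.0120 (-0.169 to 0.171). With the replicate number as a block, the calls over all genes were 2493 in place of 2830 for age, 1702 in place of 2025 for anti-PD-1 against control, 1455 in place of 1674 for combination against anti-PD-1, and 0 in both fits for combination against control. Ppbp was called in anti-PD-1 against control with the block (edgeR adjusted p 0.0444), and no other of the 9 genes changed its call with it. Over all genes, the calls for anti-PD-1 against control were 881 in a fit of the 2 groups alone and 607 without control library 2. Those for combination against anti-PD-1 were 3038 with library totals alone, 2528 by DESeq2 and 260 without combination library 2, those for age 1160 without young library 3, and those for combination against control 68 by DESeq2, 11 without the filter and 13 without combination library 1. Counts of 90 or more per library for each of the 9 genes mean that spread between libraries, more than counting, limits their precision.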

Other observations

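Of 18556 genes tested, 61 had all 3 aged control libraries above the 9 others and all 3 young libraries below them. They held 8 of the 9 platelet and megakaryocyte genes, 16 genes of the other platelet and megakaryocyte lists, and 37 others. Among those 37, Slc6a4, a serotonin transporter that platelets also carry, averaged 34.3 CPM in combination, 33.8 CPM in aged anti-PD-1, 52.0 CPM in aged control and 16.7 CPM in young lungs. Myl9, a myosin light chain of platelets and smooth muscle, averaged 404, 347, 612 and 201 CPM in the same order. Parvb, which binds the kindlin and integrin-linked kinase complex, averaged 148, 172, 229 and 73.9 CPM, and Zyx, an actin regulator of adhesion sites, 399.7, 335, 546 and 221 CPM. Treml2, a neighbour of Treml1, averaged 53.2, 50.2, 75.9 and 23.2 CPM. The 37 also held Abca7, Cd7, Gad1, Hmga2 and Mtmr14, among others. They were not sorted by cell type, so the genes named first do not stand for the rest. All of these genes were named after their values were seen, the order was used to select them, and no test was made.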
